A study of Mus musculus with 20 samples.

Results

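Acta2 and Myh11 are the loci of the contractile apparatus by which myoepithelial cells squeeze milk from the mammary alveoli. They were followed here through 14 deposited lists of accessible regions. All list entries that overlap either of 2 mm9 windows were taken: chr19:34265000-34380000 around Acta2 and chr16:14144000-14342000 around Myh11. This gave 109 entries out of 311456 on nuclear chromosomes, 58 at Acta2 and 51 at Myh11. Of these, 94 were peaks of a normal cell type and 3 came from a tumour comparison. The other 12 came from lists deposited for 1 normal cell type each under the name UAR, which the labels leave unexplained. The assay was ATAC-seq: Tn5 transposase cuts and tags accessible DNA, and the tagged fragments are sequenced. Normal cells were sorted from mammary glands of wild-type C57BL6J mice, with 2 samples each of fetal mammary stem cells (fMaSC) at embryonic day 18 and, from adult glands, of basal cells, luminal progenitors and mature luminal cells. Luminal cells of PY230, a mouse mammary tumour line transplanted into syngeneic mice, were sorted into 3 SOX10-high and 3 SOX10-low samples, SOX10 being a transcription factor of the neural crest. The other samples of the series were 2 of basal SOX10-high PY230 cells, 2 of basal SOX10-high C3-1-TAg tumours of the FVB strain, 1 PY230 bulk tumour and 1 PY230 culture, and no list used here was named for them.

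Acta2 encodes smooth muscle alpha-actin and Myh11 the smooth muscle myosin heavy chain. Both are textbook markers of differentiated myoepithelial cells, the contractile cells that surround the luminal layer and lie within the basal population, and both are also made by vascular smooth muscle. In smooth muscle their transcription is driven by serum response factor, which binds CArG boxes together with myocardin-family coactivators. Acta2 was placed at 34.316 to 34.330 Mb of chromosome 19 and Myh11 at 14.194 to 14.292 Mb of chromosome 16, positions that came with the choice of windows and are rounded to 1 kb. They could not be compared with an mm9 annotation here, and exons and introns were therefore not assigned. Acta2 lies on the minus strand in the RefSeq table, and Myh11 is known to be transcribed in the same sense, so the 5′ end of each gene is its end of higher coordinate. By RefSeq gene order, Acta2 (gene ID 11475) lies between Stambpl1 on its 3′ side and the noncoding Gm31355 followed by Fas on its 5′ side. Myh11 (gene ID 17880) lies between Nde1 on its 3′ side and Cep20 on its 5′ side.

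Every normal cell type had a peak within 1 kb of the 5′ end of both genes, as placed to the nearest kb. For Myh11 no promoter sequence was at hand, so the promoter of Acta2 alone is shown. The sequence holds the 250 bases before the annotated start (RefSeq, GRCm38.p6, minus strand), with matches to the CArG box in capitals, allowing 1 base other than A or T in the AT core.
Acta2 promoter: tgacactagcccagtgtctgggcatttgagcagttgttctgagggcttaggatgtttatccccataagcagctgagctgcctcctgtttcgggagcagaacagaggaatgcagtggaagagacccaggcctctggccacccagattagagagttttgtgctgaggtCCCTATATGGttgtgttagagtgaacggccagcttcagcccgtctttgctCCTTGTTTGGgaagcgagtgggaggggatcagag
The 2 matches, CCCTATATGG and CCTTGTTTGG, begin 84 and 34 bases before the start. Where they fall within the mm9 peak was not determined. Of 32851 RefSeq promoters searched over the same length and both strands, 8.59% held at least 1 such match and 1.47% an exact CArG box, of which Acta2 had 0. The same window held 3 matches to the E-box CANNTG, found in 66.2% of promoters, and 1 to CATTCC, the core of the MCAT element, found in 12.6%. These matches describe letters and do not show that a factor was bound.

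Basal peaks covered the most sequence in both genes. Within the 14.0 kb of Acta2, basal peaks covered 6.35 kb, or 45.3%. Luminal progenitor peaks covered 1.91 kb (13.6%), fMaSC peaks 1.85 kb (13.2%) and mature luminal peaks 1.18 kb (8.46%). Within the 98 kb of Myh11, basal peaks covered 8.93 kb, or 9.11%, against 1.86 kb (1.90%) for luminal progenitor, 1.26 kb (1.28%) for fMaSC and 1.05 kb (1.07%) for mature luminal peaks. The basal list, with 80294 peaks, was close in length to the fMaSC list, with 79910, while luminal progenitors had 60030 peaks and mature luminal cells 61584. Basal peaks were wider over the whole genome, with a median width of 678 bp against 457 bp for fMaSC, 608 bp for luminal progenitor and 561 bp for mature luminal peaks. The share of the genome that each list covers was not computed, so how far these genes differ from it is not known. Each peak list was called by the authors on both samples of a type together, so no value per sample, no replicate error and no test between cell types can be given, and the depth is unknown. In such sorted populations, more open cells and more open chromatin per cell cannot be told apart. Whether vascular smooth muscle cells were among the sorted basal cells was not tested.

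**Figure D1:**
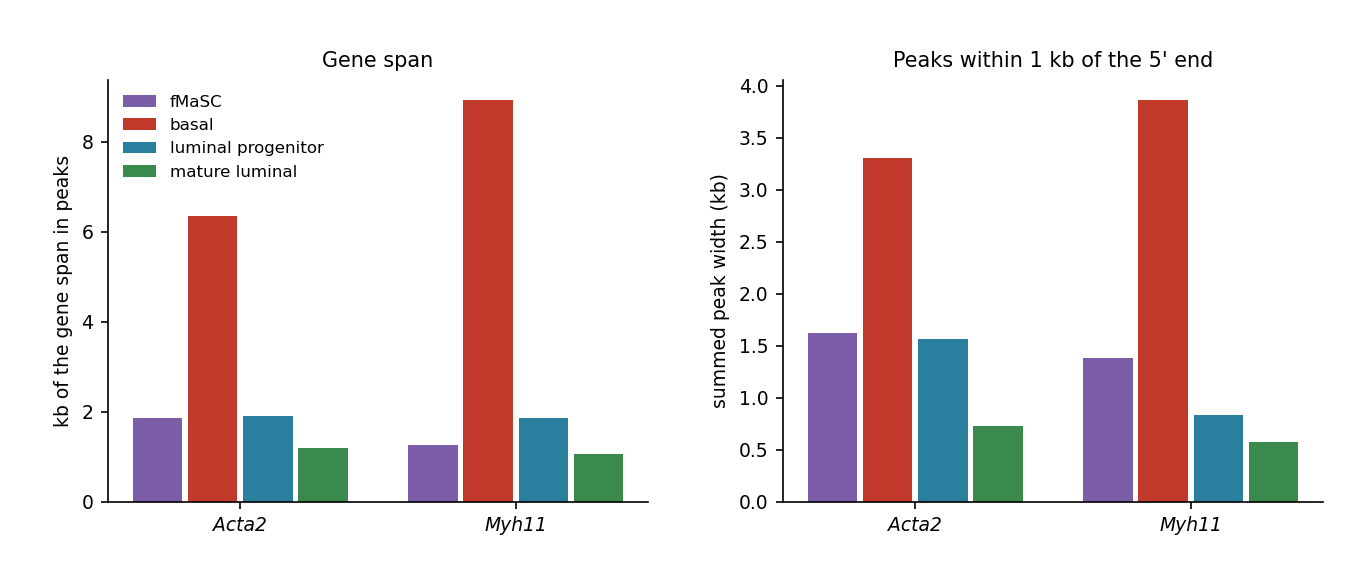
Left, kb of each gene span covered by peaks of the 4 normal cell types. Right, summed width in kb of the peaks within 1 kb of the 5′ end. Bars are single values from pooled lists, without error bars, and basal cells are highest in all 4 groups of bars (6.35 and 8.93 kb on the left, 3.31 and 3.87 kb on the right).

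Within 1 kb of the 5′ end of Acta2 every normal cell type had a peak, and the cell types differed in its width. The basal peak, chr19:34328000-34331308, was 3309 bp wide with a fold of 16.6, the authors' enrichment over the peak caller's background. It ranked 679th of 80294 basal peaks by width (top 0.846%) but only 14229th by fold (top 17.7%). The fMaSC peak was 1623 bp wide with a fold of 8.36, the luminal progenitor peak 1566 bp with 6.44, and the mature luminal peak 724 bp with 7.97. In their own lists these 3 peaks stood in the top 3.60%, 9.85% and 35.5% by width and the top 43.6%, 52.7% and 52.2% by fold. All 3 lay inside the basal peak.

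At the 5′ end of Myh11 the basal peak was again the broad one. It spanned chr16:14289317-14293182, 3866 bp, with a fold of 17.0, and ranked 302nd by width (top 0.376%) and 13419th by fold (top 16.7%). Where basal cells had this single peak, the other types had short ones. Within 1 kb of the 5′ end, fMaSC had 2 peaks of 583 and 801 bp with folds of 12.2 and 6.33. Luminal progenitors had 2, of 638 and 200 bp, with folds of 8.11 and 4.16, and another of 398 bp with a fold of 3.74 lay farther into the gene, inside the span of the basal peak. Mature luminal cells had 1 peak of 570 bp with a fold of 8.97. The widest of these peaks stood in the top 22.7% of the fMaSC list, 47.6% of the luminal progenitor list and 49.0% of the mature luminal list by width. By fold, the strongest of them stood in the top 25.6%, 39.2% and 45.5% of the same lists.

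**Figure D2:**
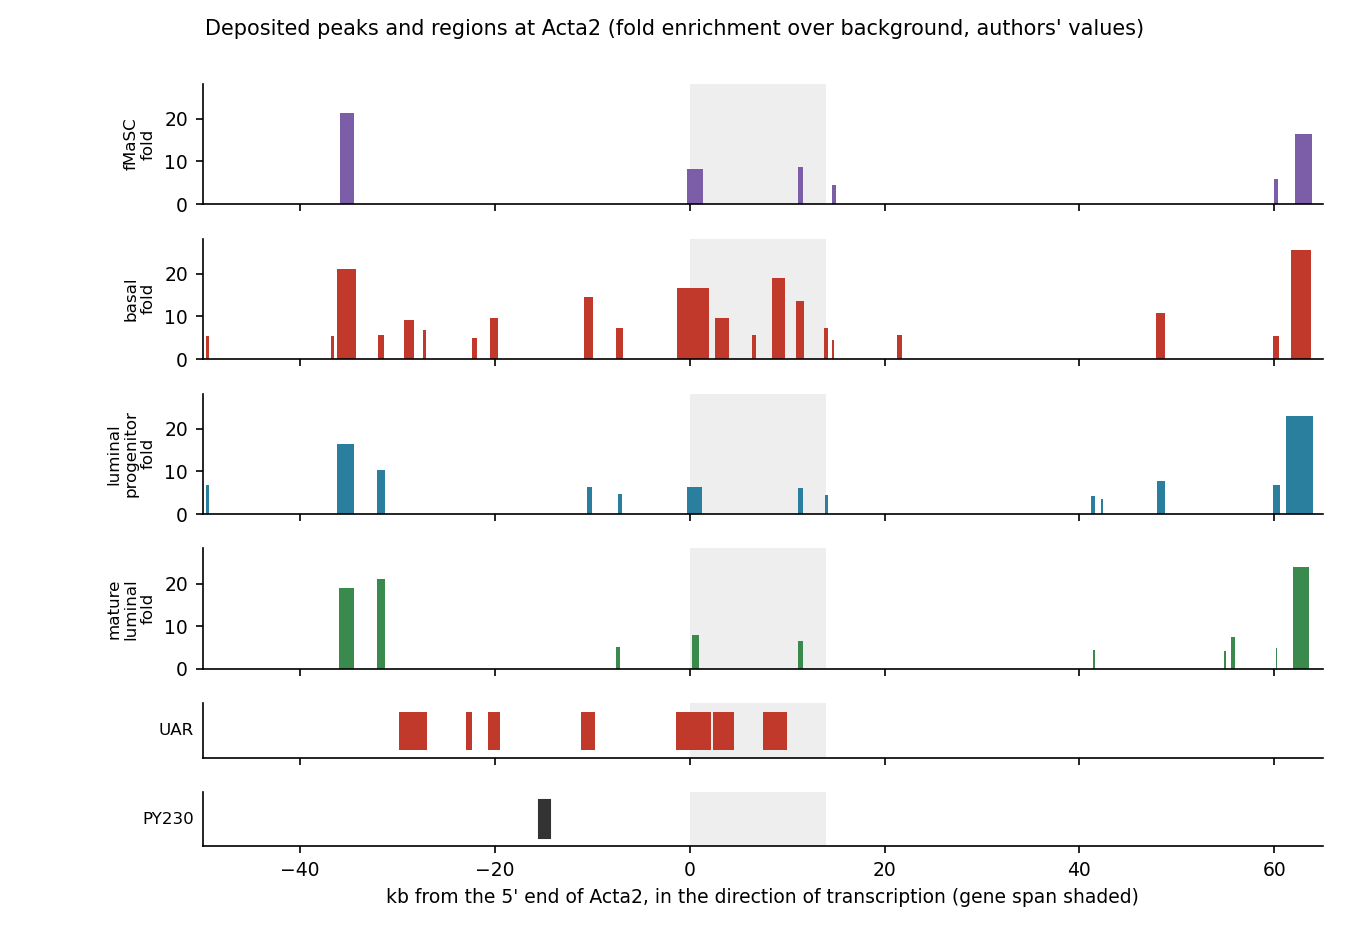
Deposited entries at Acta2, placed by kb from the 5′ end of the gene in the direction of transcription, with the gene span shaded. Bar height is the authors' fold in the 4 peak lists, and the lower rows hold basal UARs (red) and the open PY230 region (black). Every type has a peak within 1 kb of the 5′ end, and the 7 UARs lie between 28.4 kb before it and 8.7 kb past it, by their centres.

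To compare sites across types, the peaks of all 4 lists were merged where they overlapped by at least 1 bp, giving 25 open regions in the Acta2 window and 21 in the Myh11 window. A basal peak was present in 21 of the 25 Acta2 regions (84.0%, exact binomial 95% interval 63.9 to 95.5%) and in 16 of the 21 Myh11 regions (76.2%, 52.8 to 91.8%), against 61.5% of all 128800 open regions of the genome. An fMaSC peak was present in 6 regions at Acta2 (24.0%) and 8 at Myh11 (38.1%), against 58.0% of all. Luminal progenitor peaks were present in 13 (52.0%) and 9 (42.9%), against 44.4% of all, and mature luminal peaks in 10 (40.0%) and 8 (38.1%), against 45.9% of all. Neighbouring regions are not independent, and the intervals cover counting error only. Luminal shares lay closer to those of the whole genome, while basal shares were above and fMaSC shares below them, and no test was made of these differences.

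Basal cells alone had a peak in 9 of the 25 regions at Acta2 (36.0%, exact interval 17.97 to 57.48%) and in 9 of the 21 at Myh11 (42.9%, 21.8 to 66.0%), against 15.5% of all open regions. Peaks of all 4 types were found in 5 regions at Acta2 (20.0%) and 6 at Myh11 (28.6%), near the 21.7% of all regions. At Myh11 all 9 basal-only regions lay in the gene span, whereas at Acta2 3 lay in the gene span and 5 on the 5′ side of it. Many were weak peaks. At Myh11 their folds ran from 3.66 to 10.1, and 7 of the 9 were below the median of all basal peaks, 7.98. When only peaks at or above the median fold of their own list were kept, the basal-only share at Myh11 fell from 42.9% to 20.0%, or 2 of 10 regions, with 15.02% over all regions under the same threshold. At Acta2 the folds ran from 4.96 to 19.0, 5 of the 9 were below the median, and the share under the same threshold was 38.5%, or 5 of 13, a count that includes 1 region whose luminal progenitor peak fell below its own threshold.

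Inside Acta2 the basal-only sites lay between the 2 sites that every type shared. A shared region stood at chr19:34318241-34319126, near the 3′ end of the gene, with a basal fold of 13.6, an fMaSC fold of 8.61, a mature luminal fold of 6.48 and a luminal progenitor fold of 6.03. The other was the region at the 5′ end. Between them basal cells had peaks at chr19:34320235-34321549 (fold 19.0, top 12.5% of the list), chr19:34323143-34323576 (fold 5.60, top 72.0%) and chr19:34325945-34327408 (fold 9.70, top 40.3%). The other 3 types had none there, and their longest stretch of the gene without a peak was 9.79 kb for fMaSC, 9.83 kb for luminal progenitors and 10.2 kb for mature luminal cells. In basal cells the longest stretch was 2.37 kb.

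Myh11, a gene of much greater length, had its basal peaks in its 5′ part. A region shared by all types at chr16:14237220-14237794 lay 54.5 kb into the gene, with an fMaSC fold of 10.4, a basal fold of 9.92, a luminal progenitor fold of 7.48 and a mature luminal fold of 6.73. From the 3′ end of the gene up to that region, a stretch of 43.2 kb, basal cells had no peak. From there to the 5′ end, 10 regions with a basal peak followed over 45.8 kb, of which 9 had a basal peak alone and 1, at chr16:14265251-14265597, was shared with fMaSC (folds 4.31 and 4.56). Luminal progenitors had no peak over 52.7 kb of this part of the gene and mature luminal cells none over 53.5 kb.

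**Figure D3:**
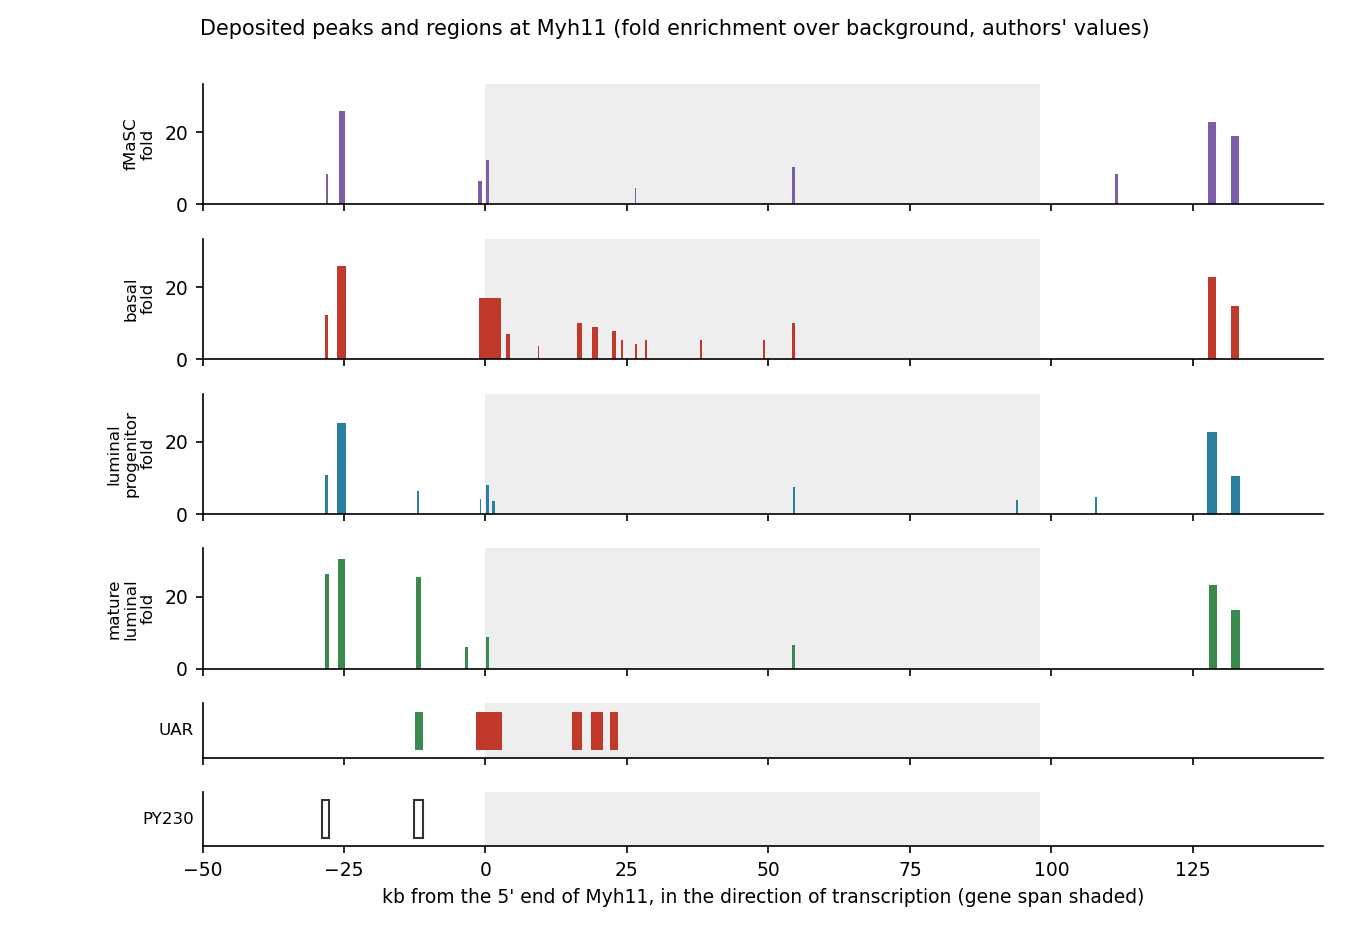
Deposited entries at Myh11, drawn in the same way, with basal UARs in red, the mature luminal UAR in green and the closed PY230 regions as open boxes. The 12 basal peaks of the shaded gene span fall in its 5′ part, from the 5′ end to 54.5 kb into the gene, and 4 regions outside the span hold peaks of all 4 types.

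For every normal cell type the authors deposited a list called UAR and another called URR, abbreviations that the labels leave unexplained. UARs are taken here as regions that set a cell type apart by accessibility, a reading that the labels do not state and that was not tested. In the windows each of the 11 basal UARs overlapped a basal peak, by 3.71 to 91.9% of its bases. Of all basal UARs, 50.8% held no peak of another normal type. Of the 5144 basal UARs, 7 lay in the Acta2 window and 4 in the Myh11 window. None of the 1222 fMaSC UARs or 306 luminal progenitor UARs lay in either window, nor did any URR (27 to 1028 per list). Of the 3282 mature luminal UARs, 1 lay there. All these lists are shorter than the basal one, so absence from windows of this size says little. Of the 21 basal peaks at Acta2, 8 lay in a basal UAR (38.1%, exact interval 18.1 to 61.6%), as did 4 of the 16 at Myh11 (25.0%, 7.27 to 52.4%), against 7.67% of all 80294 basal peaks. Inside the gene spans it was 3 of 6 at Acta2 and 4 of 12 at Myh11. Outside the gene spans it was 5 of 15 at Acta2 and 0 of 4 at Myh11. Of the 8 peaks at Acta2, 2 lay in the same UAR and 1 overlapped its UAR by only 26 bp. With at least 50% of the peak required to overlap, the share was 33.3% at Acta2 and 25.0% at Myh11, against 7.66% of all basal peaks. Neighbouring peaks are not independent, and the intervals cover counting error only.

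A basal UAR lay across the 5′ end of each gene. The UAR at the Acta2 5′ end, chr19:34327801-34331400, was 3600 bp wide and had a score of 1357, ranking 2997th of 5144. That of Myh11, chr16:14289101-14293700, was 4600 bp wide with a score of 1005, ranking 3718th. Both therefore stood below the median score of basal UARs, 1633, and both held peaks of all 4 types. Basal peaks covered 91.9% and 84.0% of them, fMaSC peaks 45.1% and 30.1%, luminal progenitor peaks 43.5% and 26.9%, and mature luminal peaks 20.1% and 12.4%.

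Farther into the genes the UARs scored higher and held basal peaks alone. In Acta2 these were chr19:34325401-34327600, with a score of 4294 and the highest rank of any at the 2 loci (763rd), and chr19:34320001-34322500, with a score of 3746 (940th). The first was separated from the UAR at the 5′ end by 0.2 kb. In Myh11, 3 UARs lay together between 16.2 and 22.7 kb into the gene, with gaps of 1.3 and 1.5 kb. They were chr16:14274901-14276700 with a score of 2234 (1879th), chr16:14271301-14273400 with 1182 (3346th) and chr16:14268601-14270000 with 4025 (847th). Their basal peaks had folds of 10.1, 8.84 and 7.76, so the order of scores was not that of folds.

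On the 5′ side of Acta2, where Gm31355 and Fas follow in gene order, 4 more basal UARs lay 10.5 to 28.4 kb before the gene. The nearest, chr19:34339701-34341200, had a score of 2031 (2095th) and held a basal peak with a fold of 14.7 and a luminal progenitor peak with 6.44. The next, chr19:34349501-34350700, scored 2953 (1322nd) and held a basal peak alone, with a fold of 9.70. The UAR at chr19:34352301-34353000 scored 3292 (1127th), yet only 26 of its 700 bp (3.71%) lay in a basal peak, one with a fold of 4.96 that ended just inside it. The last, chr19:34357001-34359800, held 2 basal peaks with folds up to 9.27 and had the lowest score of the 11, 621 (4606th). The Myh11 window had no basal UAR on the 5′ side of the gene beyond the one at the 5′ end. Over both loci, 8 of the 11 basal UARs (72.7%) held no peak of another type, against 50.8% of all basal UARs. With only 11 regions, and no interval computed, this difference was not tested. Of the 11, 7 scored above the list's median.

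**Figure D4:**
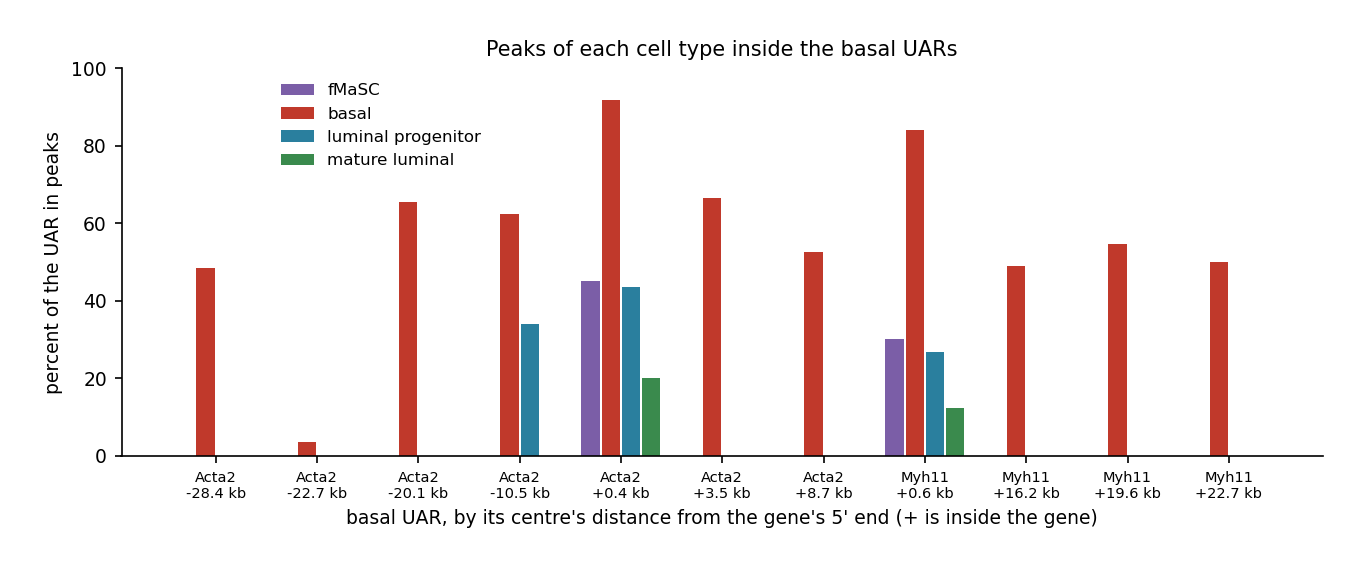
Percent of each of the 11 basal UARs covered by peaks of the 4 normal cell types, ordered by the distance of the UAR's centre from the 5′ end of its gene in kb. The UARs at both 5′ ends (Acta2 +0.4 kb, Myh11 +0.6 kb) are covered in part by peaks of every type, the one at -10.5 kb by basal and luminal progenitor peaks, and the other 8 by basal peaks alone.

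By fold, no peak in a gene span or within 1 kb of its 5′ end was among the top 10% of its list. By width, the basal peaks at the 5′ ends of Acta2 and Myh11 stood in the top 0.846% and 0.376%. Of 94 peaks in the windows, 16 were in the top 10% of their list by fold: 4 of 37 basal peaks against 10.0% of all basal peaks, 3 of 15 fMaSC peaks (10.1% of all), 3 of 24 luminal progenitor peaks (10.1% of all) and 6 of 18 mature luminal peaks (10.2% of all). Of the 36 peaks in a gene span or within 1 kb of its 5′ end, 0 were. The single strongest peak of each list in each window stood outside the gene, at a site that all types shared. At Acta2 the highest basal (25.7), luminal progenitor (22.9) and mature luminal (23.9) folds lay in the region chr19:34265988-34268757, on the 3′ side of the gene. In fMaSC the highest lay at chr19:34364497-34365878, on the 5′ side, with 21.3. At Myh11 all 4 types had their highest fold in the region chr16:14316705-14318181, namely a mature luminal fold of 30.4, a basal fold of 25.9, an fMaSC fold of 25.8 and a luminal progenitor fold of 25.1.

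**Figure D5:**
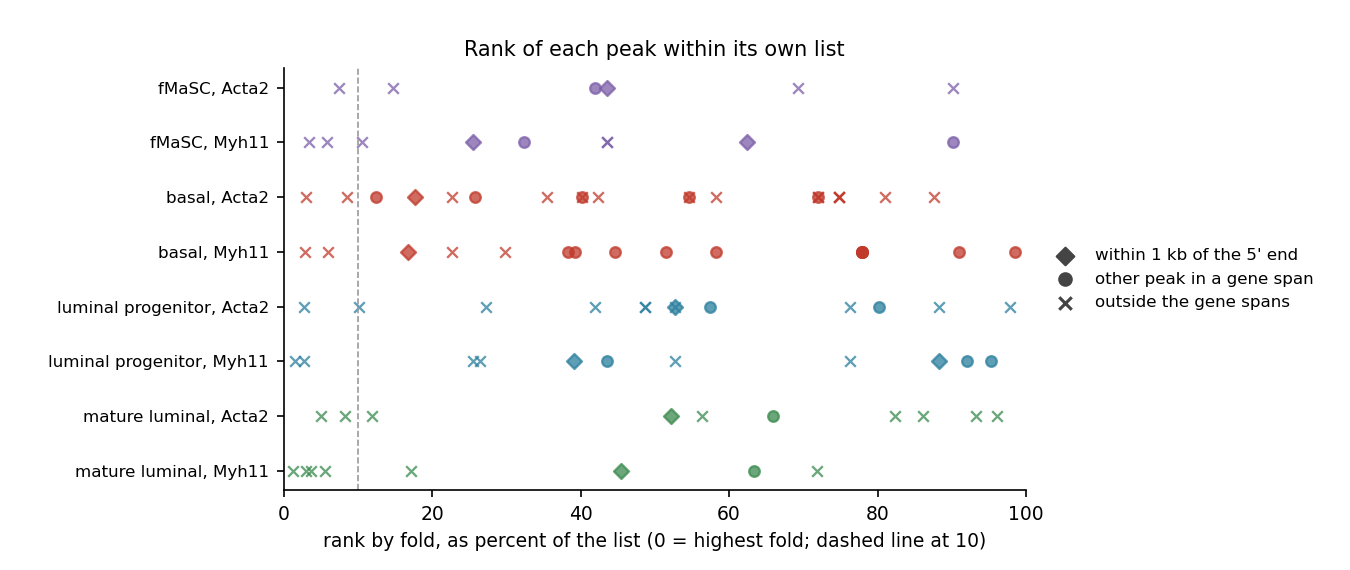
Rank of each peak by fold within its own list, as a percent of the list with 0 for the highest fold, for the 4 cell types at the 2 loci. Diamonds mark peaks within 1 kb of the 5′ end, circles other peaks in a gene span and crosses peaks outside. All 16 peaks left of the dashed line at 10% are crosses.

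Besides the sites shared by all types, which lay on both sides of the genes, each window held a region with a high mature luminal fold and no fMaSC peak. The mature luminal UAR chr16:14303001-14304400, with a score of 1833 (1233rd of 3282), lay 11.7 kb before Myh11. It held a mature luminal peak with a fold of 25.4 (top 3.76% of the list) and a luminal progenitor peak with 6.44, and no peak of basal cells or fMaSC. Of the mature luminal peaks of both windows, 1 of 18 lay in a mature luminal UAR, against 6.12% of all. Near Acta2 a region at chr19:34361269-34362121 had a mature luminal fold of 21.2 (top 8.32% of its list) and was in no UAR. The luminal progenitor fold there was 10.4 (top 27.3%) and the basal fold 5.60 (top 72.0%).

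In the tumour comparison neither gene span held a region listed as open or closed in SOX10-high luminal PY230 cells. The windows held 3 such regions, all on the 5′ side of a gene. The only open one, chr19:34344301-34345500, lay 14.9 kb before Acta2 with a score of 56.9 (1120th of 3208), between 2 basal UARs, and overlapped no peak of any normal type. Of the 46 open regions of the windows, 0 therefore lay in the open list, against 1.88% of all open regions. The closed list held chr16:14303001-14304600, 11.8 kb before Myh11, with a score of 1972 that ranked 205th of 15108 (top 1.36%). It overlapped the mature luminal UAR. The other closed region, chr16:14319701-14320800, scored 49.2 (12142nd) and held peaks of all 4 types, with a mature luminal fold of 26.4 beside a basal fold of 12.3, a luminal progenitor fold of 10.8 and an fMaSC fold of 8.36. Thus 2 of the 46 open regions of the windows lay in the closed list, against 11.0% of all. Of the 11 basal UARs, 0 were in either PY230 list. The share of all basal UARs in those lists was not computed, so this count is not read as a trait of these loci.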

How the data were processed

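Peaks of each normal cell type were called by the authors in mm9 from the 2 samples combined, with a q-value of 0.001, per the labels and list names. The submitters' processing notes name the peak callers MACS2 2.1.1 and SICER and the aligner Bowtie 0.12.8, without settings. Treatment of duplicates, repeats and Tn5 offsets, which sets the peaks, was not stated. Peak values are a deposited fold, a ratio of enrichment over the caller's background. Median folds were 8.47 for mature luminal, 7.98 for basal, 7.60 for fMaSC and 6.86 for luminal progenitor peaks. Folds of different lists were not put on a common scale. The other 10 lists carry a deposited score of unstated scale. No reads or counts per sample were used.

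Coordinates are 1-based. Peak lists were kept as deposited and lists on the 100 bp grid were shifted up by 1 base. The mitochondrial chromosome was not analysed. Rank 1 is the highest value of a list, with ties given the best rank. Overlap means at least 1 bp. Entries named are all UAR, URR and PY230 entries, the strongest peak of each list in each window, and peaks at the 5′ end or among the top 10% within a gene. Others named in the text were chosen after their values were seen, as was the distance of 1 kb to the 5′ end. The windows, members and alternatives were chosen with earlier results of these data known. The basal and basal-only shares of open regions and the shares of basal peaks in a basal UAR have exact (Clopper-Pearson) 95% intervals. Alternatives were stricter peak sets, merging across 500 bp, a 50% overlap and 10 kb flanks. A list of other contractile genes and of cell type markers needed an mm9 annotation and was not analysed. RefSeq tables (GRCm38.p6) gave gene order and the promoter. Python 3.11.15, pandas 2.3.3 and scipy 1.17.1 were used, and overlaps were tested on simulated data against bedtools 2.31.1.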

Additional observations from a re-analysis of the deposited data

How the results depend on the processing

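Of 24 values recomputed for 8 results, 21 stayed within the exact interval of the reported value or within 1.5 times the reported count. This is a weak check, because the intervals are wide and the settings reuse the same peaks. The basal-only share at Myh11, for example, had an interval of 21.8 to 66.0% and was 60.0% with 10 kb flanks. The 3 values outside these limits were the following. With the gene span plus 10 kb on each side in place of the window, a basal peak was present in 100% of the Acta2 open regions (10 of 10). The 4 regions of the window without a basal peak all lay farther out, on the 3′ side of the gene. In that shorter stretch the basal UAR count at Acta2 was 4 in place of 7, because the others lay outside it. With peaks at or above the median fold, the basal-only share at Myh11 was 20.0%. With the strongest 60030 peaks of each list, basal-only shares were 31.8% at Acta2 and 26.7% at Myh11, against 11.4% of all regions. No paired analysis was possible because the lists carry no value per sample, and for the same reason no sample could be left out. Depth is unknown.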
